A study of Homo sapiens with 6 samples.

Results

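The genes described here encode the machines that trim and destroy RNA in RL cells: the RNA exosome, ribonuclease (RNase) P and its relative RNase MRP, the decapping enzymes, the 5′ exonucleases and the deadenylases. They were chosen by gene symbol alone, as EXOSC1 to EXOSC10, the DIS3 family, MPHOSPH6, C1D, the RPP and POP proteins of RNase P, XRN1, XRN2, the DCP and EDC decapping genes, DCPS, PARN, PAN2, PAN3 and every symbol that starts with CNOT. Of 18417 genes with a probe set of their own, 45 met this rule. The rule used no values, but it was set with earlier results of these data known. MPHOSPH6 and RPP21 were not analysed here, because no probe set was annotated to either gene alone. RL is an established B-cell lymphoma line with the t(14;18) translocation, and LY317615 is the compound enzastaurin, which blocks protein kinase C, the beta form above all. Total RNA was read on Affymetrix Gene 1.0 ST arrays, on which a set of short probes (a probe set) reports each transcript. There were 3 arrays of untreated RL cells and 3 arrays of RL cells given LY317615 at a labelled 2.5 mM, a unit that could not be checked; 48 h stands in every sample title, and no vehicle is named for the untreated cells. All arrays come from this 1 line. The labels call the samples replicates without saying that they were separate cultures. The p-values therefore set the group difference only against the spread among arrays, and that spread may be technical.

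An mRNA is usually destroyed in steps. Deadenylases, chiefly the CCR4-NOT complex with PAN2-PAN3 and PARN, shorten its poly(A) tail; DCP2 and its cofactors then remove the cap, and XRN1 degrades the body from the 5′ end, while the cytoplasmic exosome degrades it from the 3′ end. In the nucleus the exosome, which is a barrel of EXOSC subunits joined to the nucleases DIS3 and EXOSC10, also trims ribosomal RNA and small RNA precursors, and RNase P removes the 5′ leader of tRNA precursors. Growing lymphoma cells rely on the nuclear enzymes for making ribosomes and tRNA.

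The start regions of the 3 members with the largest falls are shown because these genes fell most and in the same direction. The sequences are the 250 bases before the RefSeq transcript start on GRCh38.p14, read 5′ to 3′ along the gene; EXOSC5 lies at chr19:41397360-41397609 on the minus strand, RPP40 at chr6:5004038-5004287 on the minus strand and EXOSC7 at chr3:44975994-44976243 on the plus strand. Capitals mark a match to a searched motif on either strand. The motifs were CACGTG (the E-box bound by MYC and its relatives), then CCGGAAG (the core of many ETS-factor sites), and the exact palindrome bound by NRF1.
EXOSC5: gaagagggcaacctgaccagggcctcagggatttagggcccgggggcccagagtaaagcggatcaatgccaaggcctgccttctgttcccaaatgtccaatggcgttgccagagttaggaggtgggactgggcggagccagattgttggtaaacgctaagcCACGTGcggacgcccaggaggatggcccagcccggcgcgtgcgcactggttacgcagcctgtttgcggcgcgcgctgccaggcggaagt
RPP40: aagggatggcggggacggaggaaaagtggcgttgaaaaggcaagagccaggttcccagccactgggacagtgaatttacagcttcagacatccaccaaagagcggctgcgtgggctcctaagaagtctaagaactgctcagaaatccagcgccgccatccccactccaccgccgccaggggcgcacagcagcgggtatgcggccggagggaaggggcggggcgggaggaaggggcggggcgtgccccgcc
EXOSC7: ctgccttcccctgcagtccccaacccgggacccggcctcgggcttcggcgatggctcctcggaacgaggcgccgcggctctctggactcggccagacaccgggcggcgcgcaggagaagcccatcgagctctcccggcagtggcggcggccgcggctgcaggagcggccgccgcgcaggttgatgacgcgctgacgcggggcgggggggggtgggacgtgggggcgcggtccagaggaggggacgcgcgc
The EXOSC5 region held 1 E-box with its first base 89 bases before the start. RPP40 and EXOSC7 held none of the 3 motifs in this window. Promoter sequences were found for 40 of the 45 members, in 50 windows. An E-box lay in 5 of those 50 windows (10.0%), belonging to EXOSC5, CNOT4, POP7 and XRN2, against 6.34% of all 35116 windows. The ETS core lay in 6 of the 50, against 8.52% of all windows, and the NRF1 palindrome in 2 (POP4 and RPP14), against 1.03%. A match describes these letters only and does not show binding. Only exact matches were searched, so near matches to any of the 3 motifs were not counted.

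After LY317615 the arrays showed less RNA for 8 of 11 exosome barrel and nuclease genes, 7 of 9 RNase P proteins, both 5′ exonucleases and the 3 deadenylases PARN, PAN2 and PAN3. Fewer of the CCR4-NOT genes (5 of 11) and decapping genes (3 of 6) were called lower, and the decapping enzyme DCP2 was not called. Cyclic loess is a rescaling that removes trends with brightness. After it the lower calls numbered 4 of 11 for the exosome, 5 of 9 for RNase P and 1 of 2 for the 5′ exonucleases. They numbered 2 of 3 for the other deadenylases, 1 of 11 for CCR4-NOT and 2 of 6 for decapping. Higher calls numbered 3 for CCR4-NOT and 1 each for the exosome, RNase P and decapping. Over all genes 16.2% were lower and 14.1% higher after this rescaling. Two-sided limma tests with Benjamini-Hochberg adjustment over all 18417 genes called 29 members lower (64.4%), against 21.4% of all genes, and 2 higher, against 14.2% of all genes; in either direction 35.7% of all genes were called. The median log2 fold change was -0.32 over the members and 0.02 over all genes. Of the members, 11 fell by at least 0.5 on the log2 scale, against 8.73% of all genes, and 0 rose by that much, against 3.05%. The treated arrays lay wholly below the untreated arrays in 33 members and wholly above them in 3, and groups that did not overlap made up 49.8% of all genes. In cells measured in bulk, fewer cells with a transcript and less of it per cell cannot be told apart.

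Most members were bright, and bright genes tended to fall on these arrays. When all genes were cut into 5 equal bins of mean intensity, 29 members lay in the brightest bin, of which 19 were called lower (65.5%), against 47.6% of all genes of that bin. The median was -0.35 for these members and -0.21 for the bin. In the next bin 8 of 10 members were called lower, against 37.0% of its genes. Cyclic loess gave 15 members lower, against 16.2% of all genes, and 8 higher, against 14.1%, with a median of -0.14 (0.01 over all genes). All 11 members with falls of at least 0.5 were still called lower after it, as were RPP38, PAN3 and POP1, and the calls of the other 15 lower members were lost. Which scaling is nearer to the RNA content of the cells was not tested.

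**Figure D1:**
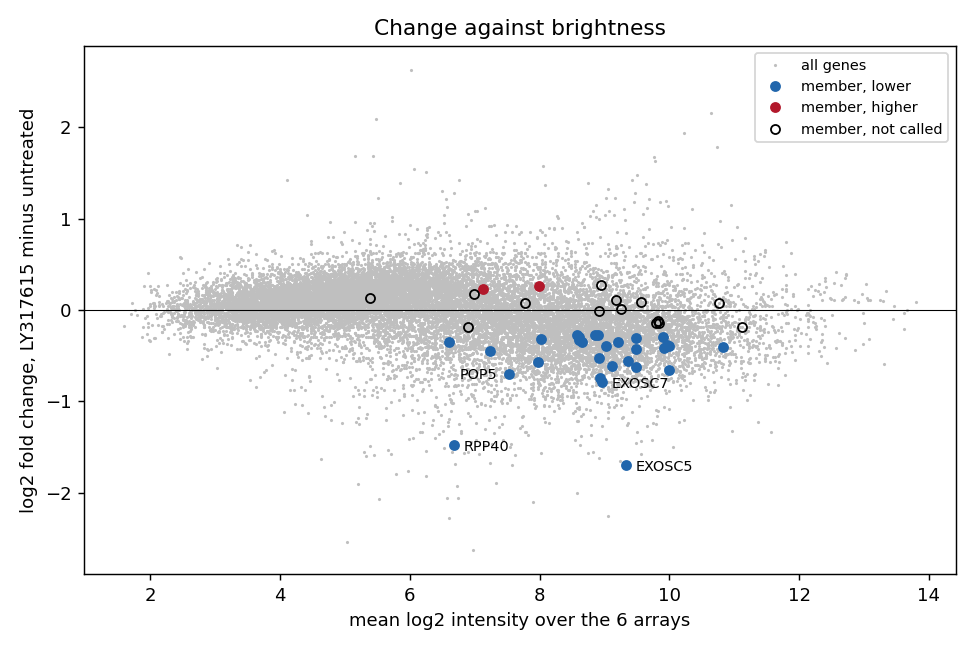
Log2 fold change (LY317615 minus untreated) against mean log2 intensity over the 6 arrays, for 18417 genes (grey) and the 45 members (filled blue, called lower; filled red, called higher; open, not called). The cloud tilts downward to the right, and EXOSC5 at -1.70 and RPP40 at -1.48 are the lowest members, with other genes down to -2.63.

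Array facts bear on all of these values. Median probe-set intensity was 56.7 to 58.2 in the untreated arrays and 60.0 to 61.4 in the treated arrays. Treated replicate 3 agreed least with the fit (limma array weight 0.376, the rest 1.04 to 1.51), and it was the lowest treated array in 31 of 45 members. Without it 27 members were called lower, against 19% of all genes, and 1 higher, against 11.5%, with a median of -0.26. Markers of B cells were bright, with MS4A1, CD79A, CD79B, PAX5, CD22, BCL6 and MME at the 89.2nd percentile or above in untreated cells. Their mean log2 intensity was 10.79 to 10.88 in untreated and 10.53 to 10.61 in treated arrays, with changes of -0.81 for MS4A1, -1.16 for CD22, -1.23 for BCL6 and 2.16 for MME. The 8 markers of other cell types (CD3D, CD3E, CD14, COL1A1, EPCAM, KRT18, HBB and PECAM1) lay at or below the 59.4th percentile. Their mean was 5.20 to 5.33 in untreated and 5.53 to 5.66 in treated arrays, with changes from -0.48 for KRT18 to 1.12 for PECAM1. The part of these shifts in the results was not tested.

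The exosome barrel and its nuclear nucleases fell in most subunits. Of 11 genes (EXOSC1 to EXOSC10 and DIS3), 8 (72.7%) were called lower, against 21.4% of all genes, and 0 higher, with a median of -0.39. All but EXOSC4 lay in the brightest bin, where 47.6% of genes were called lower, and EXOSC4 lay in the next (37.0%). After cyclic loess 4 were lower (EXOSC5, EXOSC7, EXOSC4 and DIS3), 1 was higher (EXOSC6), and the median was -0.18. The largest fall was that of EXOSC5, a subunit of the ring through which RNA is threaded. Its log2 intensity was 10.27, 10.04 and 10.23 in the untreated arrays and 8.59, 8.38 and 8.45 in the treated arrays. The groups lay more than 1 log2 unit apart, and the change was -1.70 ± 0.09 (SE), or 3.25-fold lower (adjusted p = 1.61e-05). After cyclic loess it was -1.49.

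The other ring subunits moved by unequal amounts. EXOSC7 had 9.30, 9.42 and 9.36 untreated and 8.74, 8.43 and 8.54 treated, a change of -0.79 ± 0.09 (SE, adjusted p = 0.000383). EXOSC4 had 8.21, 8.25 and 8.35 untreated and 7.77, 7.65 and 7.68 treated, a change of -0.57 ± 0.08 (adjusted p = 0.000719). In both genes every treated array was below every untreated array. EXOSC8 changed by -0.39 ± 0.07 (adjusted p = 0.00354), a call lost after cyclic loess (-0.18, adjusted p = 0.0511). EXOSC9 read -0.14 ± 0.08 (adjusted p = 0.182) and EXOSC6 0.27 ± 0.11 (adjusted p = 0.0802), and their groups overlapped. EXOSC6 was called higher after cyclic loess (0.47, adjusted p = 0.0233). The ring is built of pairs, in which EXOSC5 sits with EXOSC8, EXOSC7 with EXOSC6 and EXOSC4 with EXOSC9. Within each pair the gene with the more negative log2 fold change is named first here.

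The cap subunits EXOSC1, EXOSC2 and EXOSC3 bind RNA at the entry of the barrel. EXOSC1 changed by -0.41 ± 0.08 (SE, adjusted p = 0.004) and EXOSC3 by -0.35 ± 0.08 (adjusted p = 0.00897), and both calls were lost after cyclic loess. EXOSC2 read -0.14 ± 0.07 (adjusted p = 0.156), although its treated arrays (9.76 to 9.79) lay below its untreated arrays (9.87 to 9.95).

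DIS3, the main nuclear exosome nuclease, fell, while the values of its relatives went the other way. DIS3 had 9.31, 9.48 and 9.49 untreated and 8.80, 8.89 and 8.75 treated, a change of -0.61 ± 0.08 (SE, adjusted p = 0.00075). DIS3L, its counterpart on the cytoplasmic exosome, had 7.97, 7.89 and 7.73 untreated and 8.09, 8.16 and 8.11 treated, a change of 0.26 ± 0.08 (adjusted p = 0.0396). DIS3L2, which degrades uridylated RNA without the exosome, had 7.05, 6.99 and 6.97 untreated and 7.27, 7.21 and 7.22 treated, a change of 0.23 ± 0.07 (adjusted p = 0.0321). Every treated array was above every untreated array in DIS3L and in DIS3L2. These were the 2 rises called among the members. RefSeq lists 1 DIS3L2 pseudogene, which its probes could also read. With array medians set equal the adjusted p was 0.102 for DIS3L and 0.111 for DIS3L2. With 1 array left out, DIS3L was called only without untreated replicate 1 (0.0651 to 0.15 otherwise) and DIS3L2 only without treated replicate 3 (0.0539 to 0.111 otherwise). After cyclic loess both were called, at 0.40 and 0.26.

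EXOSC10, the nuclear exosome nuclease that trims the ends of ribosomal and small nucleolar RNA, had 10.13, 10.15 and 10.19 untreated and 9.82, 9.87 and 9.64 treated. The groups did not overlap, and the change was -0.38 ± 0.08 (SE, adjusted p = 0.00755), with -0.16 and no call after cyclic loess. C1D, a partner of EXOSC10 in ribosomal RNA processing, changed by -0.40 ± 0.07 (adjusted p = 0.00303), also not called after cyclic loess (adjusted p = 0.0504). Its 4 probe sets agreed in direction, with changes of -0.29 to -0.40 and adjusted p of 0.00316 to 0.0231 in a limma fit of all probe sets. RefSeq lists 5 C1D pseudogenes, so it is uncertain which copies these probe sets read. It also lists 2 pseudogenes of EXOSC3, 1 of EXOSC8 and 1 of CNOT4, which the probes of those genes could read.

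**Figure D2:**
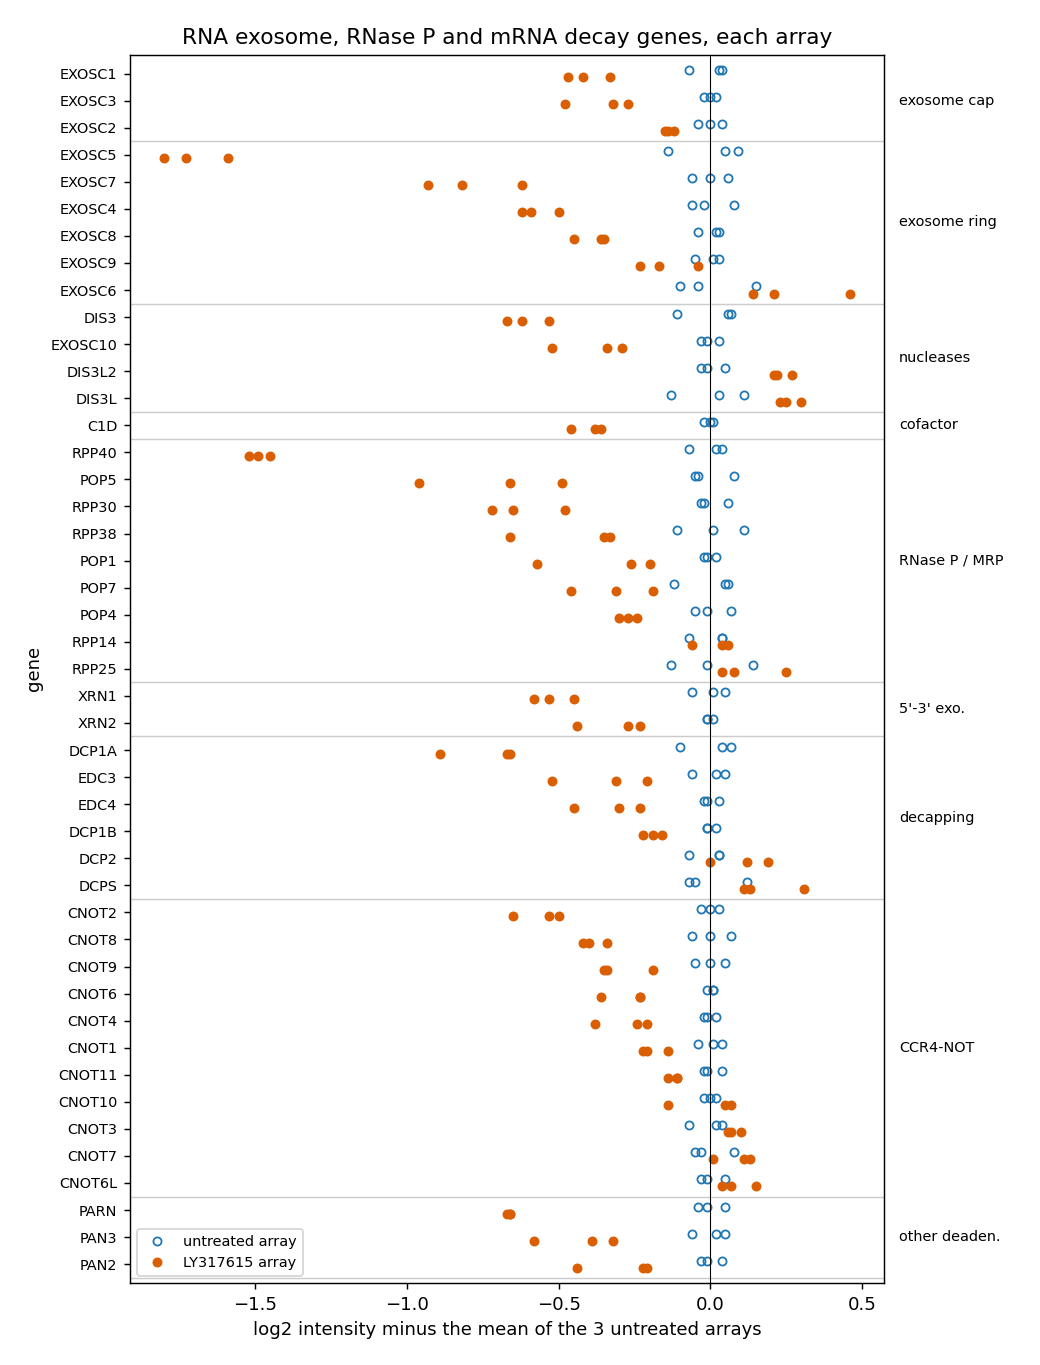
Log2 intensity of each array minus the mean of the 3 untreated arrays, for the 45 members grouped by role (open blue, untreated; filled orange, LY317615). Treated arrays of EXOSC5 and RPP40 stand farthest to the left, and those of DIS3L and DIS3L2 lie to the right of all their untreated arrays.

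Most protein subunits of RNase P and MRP fell. Of 9 measured, 7 (77.8%) were called lower, against 21.4% of all genes, and 0 higher, with a median of -0.35. RPP30 and RPP14 lay in the brightest bin, where 47.6% of genes were called lower. POP4, POP5, POP7 and RPP38 lay in the next (37.0%), and RPP40, POP1 and RPP25 were dimmer. After cyclic loess 5 were lower (RPP40, POP5, RPP38, RPP30 and POP1) and 1 higher (RPP14), with a median of -0.39. RPP40 had 7.35, 7.46 and 7.44 untreated and 5.93, 5.90 and 5.97 treated. The arrays within each group were close and the groups far apart: the change was -1.48 ± 0.07 (SE), or 2.8-fold lower (adjusted p = 1.43e-05), and -1.52 after cyclic loess. RefSeq lists 2 RPP40 pseudogenes, which its probes could also read.

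POP5 had 7.95, 7.82 and 7.83 untreated and 7.21, 7.38 and 6.91 treated, a change of -0.70 ± 0.12 (SE, adjusted p = 0.00205). RPP30 had 9.77, 9.85 and 9.76 untreated and 9.31, 9.14 and 9.07 treated, a change of -0.62 ± 0.09 (adjusted p = 0.000797). Neither gene had overlapping groups, and treated replicate 3 was the lowest array in both. POP1, the large scaffold protein of the complex, had 6.76, 6.77 and 6.80 untreated and 6.58, 6.52 and 6.21 treated. Its change of -0.35 ± 0.10 (adjusted p = 0.0285) was -0.23 without treated replicate 3 (adjusted p = 0.0393), and it was not called without any 1 of the untreated arrays (0.0647 to 0.079).

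RPP38, which binds a kink-turn of the RNA, changed by -0.45 ± 0.11 (SE, adjusted p = 0.0114). POP7 and POP4 changed by -0.32 ± 0.09 (adjusted p = 0.0274) and -0.27 ± 0.07 (adjusted p = 0.0172), with neither called after cyclic loess. The call of POP7 was also lost without untreated replicate 2 or 3 or treated replicate 1 or 3 (adjusted p = 0.0607 to 0.0922), and that of POP4 without untreated replicate 3 (0.0741). RPP14 read 0.01 ± 0.08 (adjusted p = 0.926). RPP25, the dim partner of POP7, read 0.13 ± 0.09 (adjusted p = 0.324) at the 34.6th percentile of untreated intensity.

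Both 5′ exonucleases were called lower, against 21.4% of all genes. Each lay in the brightest bin, where 47.6% of genes were called lower and the median was -0.21. XRN1, which degrades decapped mRNA in the cytoplasm, had 9.11, 9.22 and 9.18 untreated and 8.72, 8.64 and 8.59 treated, a change of -0.52 ± 0.08 (SE, adjusted p = 0.0011). XRN2, the nuclear enzyme that also acts in transcription termination, had 9.64, 9.66 and 9.64 untreated and 9.38, 9.42 and 9.21 treated, a change of -0.31 ± 0.08 (adjusted p = 0.0163). Their groups did not overlap. After cyclic loess XRN1 was called lower (-0.32, adjusted p = 0.00696) and XRN2 was not (-0.09, adjusted p = 0.311). XRN2 was not called without untreated replicate 2 either (adjusted p = 0.0545).

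Of 6 decapping genes 3 (50%) were lower (DCP1A, EDC3 and EDC4) and 0 higher, with a median of -0.26. In comparison, 21.4% of all genes and 47.6% of the brightest bin were lower. After cyclic loess 2 were lower (DCP1A and DCP1B), 1 was higher (DCP2), and the median was -0.15. DCP2, the catalytic subunit, had 9.16, 9.16 and 9.06 untreated and 9.32, 9.25 and 9.13 treated. Its groups overlapped, and its change was 0.11 ± 0.08 (SE, adjusted p = 0.325); after cyclic loess it was called higher (0.32, adjusted p = 0.0073).

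DCP1A, the cofactor that activates DCP2, had 9.20, 9.34 and 9.37 untreated and 8.64, 8.63 and 8.41 treated, a change of -0.74 ± 0.09 (SE, adjusted p = 0.00045). DCP1B, its close relative, had 7.02, 6.99 and 6.99 untreated and 6.81, 6.84 and 6.78 treated, a change of -0.19 ± 0.07 (adjusted p = 0.0609). All treated arrays of both genes were below the untreated arrays. DCP1B was called with array medians set equal (-0.24, adjusted p = 0.0343) and after cyclic loess (-0.19, adjusted p = 0.0403). The scaffold proteins EDC3 and EDC4 changed by -0.35 ± 0.09 (adjusted p = 0.0187) and -0.33 ± 0.08 (adjusted p = 0.0128), with neither called after cyclic loess and EDC3 not called without untreated replicate 2 or 3 (0.0583 and 0.0637). DCPS, which hydrolyses the cap left over after 3′ decay, read 0.18 ± 0.09 (adjusted p = 0.15).

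Fewer than all CNOT genes, grouped here by symbol as CCR4-NOT, were called. Of 11 genes, 5 (45.5%) were called lower and 0 higher, with a median of -0.19. Lower calls made up 21.4% of all genes and 47.6% of the brightest bin. After cyclic loess 1 was lower (CNOT2), 3 were higher (CNOT6L, CNOT7 and CNOT10), and the median was 0.02. The CNOT6L call rests on the brighter of its 2 probe sets, and the other read -0.05 on the deposited scale. CNOT1, the scaffold of the complex, had 11.22, 11.25 and 11.17 untreated and 11.07, 10.99 and 11.00 treated. Its groups did not overlap, but its change of -0.19 ± 0.07 (SE, adjusted p = 0.0658) was not called; the 95% interval was -0.35 to -0.03. With array medians set equal it was called (-0.25, adjusted p = 0.0363), and after cyclic loess it read 0.02. CNOT2, of the module that contacts recruiting proteins, had 9.67, 9.61 and 9.64 untreated and 9.14, 9.11 and 8.99 treated, a change of -0.56 ± 0.07 (adjusted p = 0.000685). CNOT3, its partner in that module, read 0.08 ± 0.07 (adjusted p = 0.425), although its treated arrays (7.80 to 7.84) lay just above its untreated arrays (7.67 to 7.78).

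The deadenylase subunits come in pairs of alternatives. CNOT8 had 10.12, 10.25 and 10.18 untreated and 9.84, 9.78 and 9.76 treated, a change of -0.39 ± 0.07 (SE, adjusted p = 0.00399). CNOT7 had 10.80, 10.69 and 10.67 untreated and 10.85, 10.73 and 10.83 treated, a change of 0.08 ± 0.08 (adjusted p = 0.438). CNOT8 was below its untreated arrays in every treated array, and the groups of CNOT7 overlapped.

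CNOT6 had 9.05, 9.05 and 9.03 untreated and 8.81, 8.81 and 8.68 treated, a change of -0.27 ± 0.07 (SE, adjusted p = 0.0198). CNOT6L had 9.49, 9.57 and 9.51 untreated and 9.67, 9.59 and 9.56 treated, a change of 0.09 ± 0.07 (adjusted p = 0.386). Only CNOT6 had groups that did not overlap. After cyclic loess CNOT8 (-0.17) and CNOT6 (-0.07) were not called, and CNOT7 (0.30, adjusted p = 0.0174) and CNOT6L (0.31, adjusted p = 0.0071) were called higher. CNOT6 was not called without any 1 of the untreated arrays (adjusted p = 0.0556 to 0.0661). A further CNOT6L probe set read -0.05 (adjusted p = 0.694). RefSeq lists 1 CNOT6L and 2 CNOT7 pseudogenes that probes could share, so it is uncertain which copy the CNOT6L values above read.

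Among the remaining CNOT genes, CNOT9 changed by -0.29 ± 0.08 (SE, adjusted p = 0.0188) and the ubiquitin ligase CNOT4 by -0.27 ± 0.08 (adjusted p = 0.0238), both without a call after cyclic loess. CNOT9 was not called without untreated replicate 1 or 3 or treated replicate 2 (adjusted p = 0.0515 to 0.0727), nor CNOT4 without any 1 of the untreated arrays (0.0642 to 0.0698). CNOT11 and CNOT10, which bind each other, read -0.12 ± 0.07 (adjusted p = 0.196) and -0.01 ± 0.08 (adjusted p = 0.943).

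The other deadenylases were all called lower, against 21.4% of all genes. PARN and PAN3 lay in the brightest bin, where 47.6% of genes were called lower, and PAN2 in the next (37.0%). PARN, which also matures small nucleolar RNA and telomerase RNA, had 10.37, 10.28 and 10.31 untreated and 9.66, 9.66 and 9.65 treated. Its treated arrays were nearly identical, and the change was -0.66 ± 0.07 (SE, adjusted p = 0.000215), with -0.44 after cyclic loess (adjusted p = 0.0021). PAN3, which brings PAN2 to the tail, had 9.64, 9.75 and 9.72 untreated and 9.38, 9.31 and 9.12 treated, a change of -0.43 ± 0.09 (adjusted p = 0.00542). PAN2, the catalytic partner, had 8.74, 8.79 and 8.72 untreated and 8.53, 8.54 and 8.31 treated, a change of -0.29 ± 0.09 (adjusted p = 0.0293). In both genes every treated array was below the untreated ones. PAN2 was not called after cyclic loess (-0.10), without any 1 of the untreated arrays (adjusted p = 0.0675 to 0.0932) or without treated replicate 3 (0.0533).

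**Figure D3:**
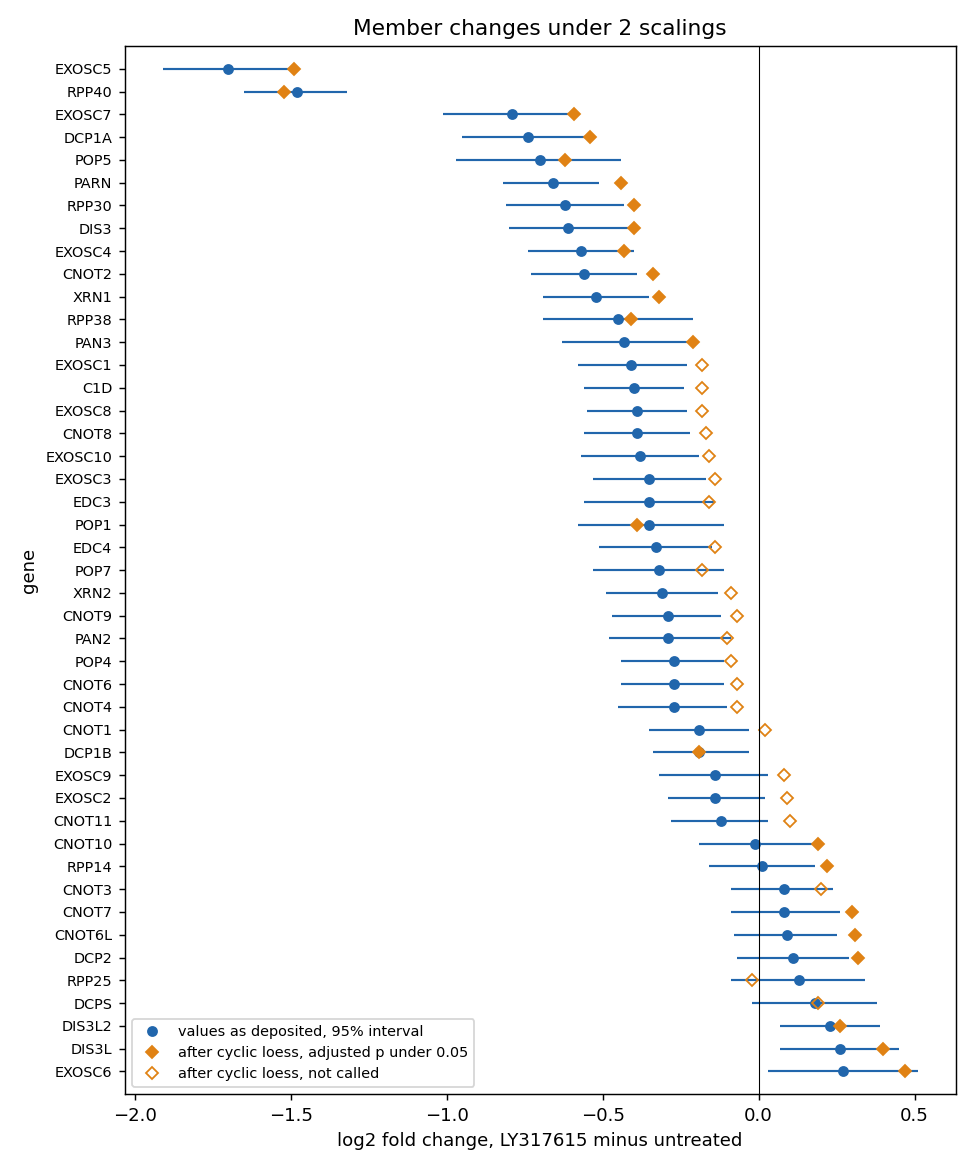
Log2 fold change (LY317615 minus untreated) of the 45 members on the deposited scale (blue points, bars are 95% intervals) and after cyclic loess (orange diamonds, filled where adjusted p was under 0.05). Diamonds lie to the right of most points, and all 11 falls of at least 0.5 keep a filled diamond below 0.

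Related members were compared within arrays, which removes any scaling that acts alike on both. For 7 pairs the log2 ratio of the first to the second gene was taken in each array and compared between the groups by a two-sided exact permutation test over arrays. With 3 arrays against 3 the smallest p this test allows is 0.1, so none could pass 0.05. All 7 pairs had groups that did not overlap, so that each exact permutation p was 0.1, also after Benjamini-Hochberg adjustment over the 7.

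Centred on the untreated mean, the DIS3 to DIS3L ratio was -0.23, 0.03 and 0.20 untreated and -0.85, -0.83 and -0.92 treated, so that DIS3 changed by -0.87 ± 0.13 (SE) more than DIS3L. After cyclic loess the changes of the 2 genes were -0.40 for DIS3 and 0.40 for DIS3L. Against DIS3L2 the difference for DIS3 was -0.84 ± 0.10, and -0.66 after cyclic loess. DCP1A relative to DCP1B differed by -0.56 ± 0.09 (-0.35 after cyclic loess).

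CNOT7 relative to CNOT8 was 0.14, -0.10 and -0.04 untreated and 0.47, 0.41 and 0.53 treated, a difference of 0.47 ± 0.08 (SE). CNOT6 relative to CNOT6L differed by -0.36 ± 0.04, or -0.29 with the mean of the CNOT6L probe sets. Every treated array had a higher share of CNOT7, relative to CNOT8, than every untreated array. The same held for CNOT6L relative to CNOT6, as read by the brighter CNOT6L probe set. The other CNOT6L probe set read -0.05, and which gene copy each of them reads is uncertain. XRN1 relative to XRN2 differed by -0.21 ± 0.06 and PAN2 relative to PAN3 by 0.15 ± 0.04.

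**Figure D4:**
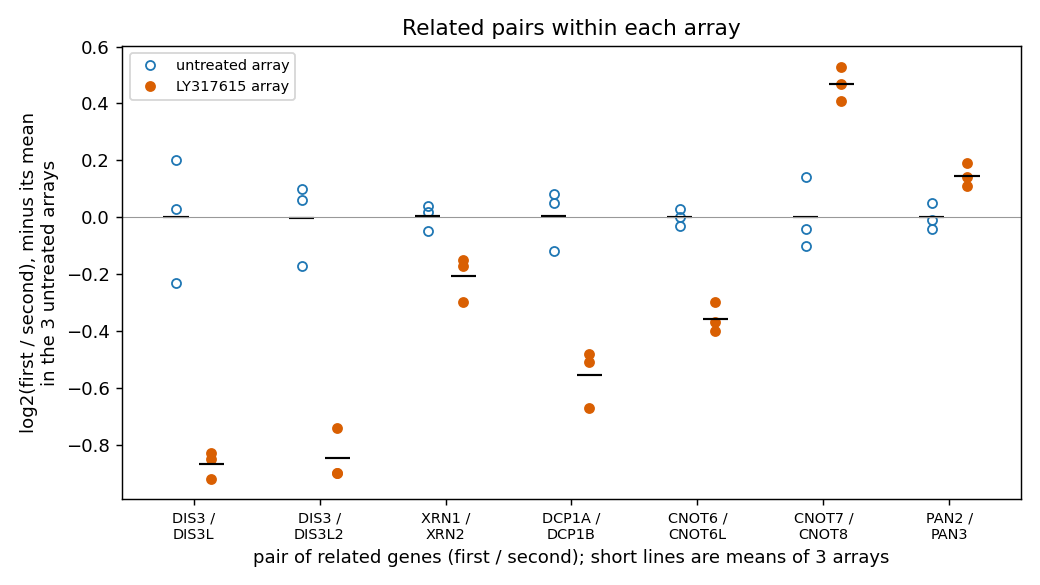
Log2 ratio of the first to the second gene of each of 7 pairs in every array, minus its mean in the 3 untreated arrays (open blue, untreated; filled orange, LY317615; short lines, means of 3 arrays). Treated arrays lie near -0.87 for DIS3 over DIS3L and near 0.47 for CNOT7 over CNOT8, clear of the untreated arrays.

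Genes that work with these complexes but lie outside the rule were counted from 6 lists. From 40% to 62.5% of the measured genes of a list were called lower. Of all genes 21.4% were called lower and 14.2% higher. The lower share was 47.6% in the brightest bin and 37.0% in the next, so the counts of several lists are near those of bright genes in general. Of 8 nuclear exosome adaptors, 5 were lower and 0 higher (4 and 1 after cyclic loess). MTREX, the helicase that feeds RNA to the nuclear exosome, changed by -0.52 ± 0.08 (SE), and ZCCHC7 and ZCCHC8, its adaptor partners, by -0.51 ± 0.09 and -0.44 ± 0.07. Of the 5 genes of the SKI complex, the cytoplasmic exosome's helicase, and its partners, 2 were lower, SKIC8 (-0.34 ± 0.08) and HBS1L (-0.37 ± 0.07), and 0 higher. After cyclic loess 1 was lower and 1 higher: HBS1L was not called, and SKIC3 was called higher (0.33, adjusted p = 0.0073).

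Of 15 genes of the LSM ring and its decapping activators, 7 were lower and 1 higher, with a median of -0.19 that turned to 0.02 after cyclic loess (5 lower, 1 higher). The ring proteins LSM3 and LSM7 changed by -0.73 ± 0.11 and -0.70 ± 0.08 (SE), and PNRC1 by -0.65 ± 0.07. Of 7 measured genes of nonsense-mediated decay, which destroys mRNA with early stop codons, 4 were lower and 0 higher (2 lower after cyclic loess). SMG5 changed by -0.64 ± 0.08, UPF2 by -0.62 ± 0.07 and the kinase SMG1 by -0.31 ± 0.07, the last not called after cyclic loess.

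Among 22 measured deadenylation recruiters and tail-binding proteins, 9 were lower and 2 higher, with a median of -0.18 that turned to 0.03 after cyclic loess (4 lower, 4 higher). ZFP36L1, which brings CCR4-NOT to AU-rich mRNA, had 9.10, 9.25 and 9.35 untreated and 9.95, 10.21 and 10.21 treated, a rise of 0.89 ± 0.10 (SE, adjusted p = 0.000302). TOB1 and TNRC6B, which recruit the same complex, the latter to microRNA targets, each changed by -0.62 ± 0.08. The 3 recruiters therefore did not move one way. Of 10 genes of tRNA end and mitochondrial RNA processing, 6 were lower and 1 higher (4 and 1 after cyclic loess). REXO2, an exonuclease of short RNA, changed by -0.93 ± 0.08, TRMT10C, a subunit of mitochondrial RNase P, by -0.66 ± 0.08, and ELAC1, a tRNA 3′ nuclease, by 0.63 ± 0.10.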

How the data were processed

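The authors deposited linear-scale intensities of 33297 probe sets. Named in the submitters' processing notes are RMA, Affymetrix Expression Console and GCOS 1.4, used in an order not given in the sources used here. Scan dates, detection calls and genome build were not given either. Log2 was taken with no added constant. Of the probe sets 19460 had 1 gene symbol, 1754 several and 12083 none; the brightest 1-gene probe set stood for each of 18417 genes.

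All genes were fitted with limma 3.58.1 in R 4.3.3 (lmFit, eBayes without trend), two-sided, on all 6 arrays, and called at an adjusted p under 0.05. Precision is limited by having 3 arrays per group. The code was tested on simulated data. Python 3.11.15, pandas 2.3.3 and matplotlib 3.10.9 made tables and figures. Promoters are from RefSeq.

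The members, lists, classes, pairs and alternatives were chosen with earlier results of these data known. Every array is shown for members called with a change of at least 0.5, for the catalytic or scaffold members and for the pairs; each list contributes up to 3 called genes of smallest adjusted p.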

Additional observations from a re-analysis of the deposited data

How the results depend on the processing

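Of 31 called members, 20 kept their call without each array in turn and 12 kept it under every alternative run: EXOSC5, RPP40, EXOSC7, DCP1A, POP5, PARN, RPP30, DIS3, EXOSC4, CNOT2, XRN1 and PAN3. Leaving out 1 array gave 21 to 28 lower members, 0 to 1 higher and medians of -0.37 to -0.26, against 16.5% to 20% lower and 8.5% to 13.8% higher over all genes; the fewest lower members were found without untreated replicate 3. Members called higher numbered 0 without untreated replicate 2 or 3 or treated replicate 1 or 2, and 1 without untreated replicate 1 or treated replicate 3. Cyclic loess gave 15 lower and 8 higher with a median of -0.14, against 16.2% lower and 14.1% higher over all genes. It turned CNOT10, which was not called before, to 0.19 (adjusted p = 0.0474). With array medians set equal 31 were lower and 0 higher, against 24.6% lower and 9.83% higher over all genes. An adjusted p under 0.01 left 18 lower and 0 higher, against 14.2% and 5.25% of all genes. The latter drop follows from the stricter limit itself. With the replicate number as a block 29 were lower and 1 higher (EXOSC6), against 20.8% and 14.7% of all genes, DIS3L and DIS3L2 being lost. Same-numbered arrays deviated from their group means with correlations of -0.017 to 0.0932, and not every array correlated best with its own number, so the numbers were not taken as pairs. The 7 pair differences kept their sign under every alternative run; with labels permuted within replicate numbers each exact p was 0.25, the smallest that this allows. Letting the variance prior follow intensity gave 30 lower and 3 higher members, against 24% and 14.9% of all genes. Leaving out the dimmest 30% of genes gave 31 lower and 3 higher, against 32.9% and 20.4% of all genes. The other alternatives (robust prior, array weights, mean of probe sets) left 29 lower and 2 higher. Over all genes they gave 21.3% to 21.7% lower and 14% to 15.1% higher.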

Other observations

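The RNA parts of RNase P and MRP were looked up after the protein values were seen. RPPH1, the RNA component of RNase P, had log2 intensities of 9.88, 9.86 and 9.97 untreated and 10.24, 10.61 and 10.55 treated, a rise of 0.56 ± 0.10 (SE, adjusted p = 0.00366 in limma). RMRP, the RNA component of RNase MRP, had 10.33, 10.53 and 10.35 untreated and 10.68, 11.12 and 11.05 treated, a rise of 0.55 ± 0.12 (adjusted p = 0.00823). In both, every treated array lay above every untreated array, while 7 of the 9 measured protein subunits were called lower. Both rises were also called with array medians set equal (0.51 and 0.49) and after cyclic loess (0.78 and 0.77). RPP25L, a relative of RPP25 that lies outside the rule, had 8.48, 8.39 and 8.46 untreated and 7.89, 7.71 and 7.67 treated, a change of -0.69 ± 0.08 (adjusted p = 4e-04), and -0.54 after cyclic loess.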
